A study of Mus musculus with 4 samples.

Results

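The 14-3-3 protein genes are Ywhab, Ywhae, Ywhag, Ywhah, Ywhaq and Ywhaz, which encode the beta, epsilon, gamma, eta, theta and zeta proteins. They were taken by symbol, and all 6 were found among the 32285 genes of the deposited single-nucleus RNA-seq (snRNA-seq) matrices. The lateral septum (LS), a forebrain region built mostly of inhibitory neurons, was collected from C57J (C57BL/6JNifdc), nude and BALB/c mice, which the study set side by side as immune backgrounds. All mice were male and 6 to 8 weeks old, and tissue of 3 mice was pooled into each of the 4 libraries. C57J 1 was run in batch 1. C57J 2, nude and BALB/c were run in batch 2. The nude mice are Foxn1 knockout animals bred on BALB/c, which lack a thymus and its T cells, so nude and BALB/c share a strain background that differs from C57J at many loci. The nude and the BALB/c groups have 1 library each, and in every comparison of them with C57J the strain, the immune state and, for C57J 1, the batch cannot be told apart.

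14-3-3 proteins form dimers that clasp other proteins at phosphorylated serine or threonine sites. By holding such clients they keep transcription factors and coactivators such as FOXO and CRTC proteins in the cytoplasm, hold the death protein BAD away from mitochondria, set the activity of RAF kinases and CDC25 phosphatases, and carry ion channels to the cell surface. The brain is rich in them, and they are known there from neuronal migration, synaptic transmission and, as leaked protein in the cerebrospinal fluid, as a sign of neuronal damage. A further family gene, Sfn (the sigma protein of epithelial cells), was nearly undetected, with 28 unique molecular identifiers (UMIs) in all LS neurons and 0 to 6 in each other named class.

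After quality limits and removal of predicted doublets, 49425 nuclei were kept, between 10913 and 13075 per library. The matrices held 72912922 to 125998527 UMIs per library. The median depth of the kept nuclei ran from 4027 UMIs in C57J 2 to 8191 in BALB/c, and the median mitochondrial share was 0.533% in C57J 1 against 0.230% to 0.331% in the libraries of batch 2. Any pair of libraries shared 29 to 63 barcodes, at most 0.478% of the smaller one. Nuclei were clustered without the 14-3-3 genes and their partner genes, and clusters were named only from fixed marker lists, so that "astrocyte" stands for astrocyte-like nuclei and likewise for the others. This gave 6 classes of neurons and 8 of other cells. LS neurons, called by Trpc4, Homer2, Ptpn3 and Dgkg, made up 21206 nuclei. A cluster of 1063 nuclei with markers of neuroblasts is called the Dlx6os1 and Top2a cluster after its leading genes and given no cell type name, because its 10 leading genes held 2 of the dividing list (Top2a and Mki67) and 1 of the neuroblast list (Igfbpl1), and the dividing list summed to 536 to 757 CPM in it. A further 3772 neurons and 813 other nuclei stayed unnamed. Levels are counts per 1000000 UMIs of the class in a library (CPM), given as mean ± SD over 4 libraries. Such a level compares 1 gene between classes, and it falls for every gene when other transcripts take more of the total, so fewer transcripts of a gene and more RNA in all cannot be told apart by it.

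In the GENCODE vM21 annotation of GRCm38 (mm10), the 6 members lie on 5 chromosomes, and their identifiers there are those of the files. Ywhab (ENSMUSG00000018326) spans chr2:163994960-164018588 on the plus strand and Ywhae (ENSMUSG00000020849) chr11:75732869-75765845, also on the plus strand. Ywhag (ENSMUSG00000051391) and Ywhah (ENSMUSG00000018965) both lie on chromosome 5, at chr5:135908409-135934616 on the minus strand and chr5:33018816-33027966 on the plus strand. Ywhaq (ENSMUSG00000076432) spans chr12:21390071-21417637 and Ywhaz (ENSMUSG00000022285) chr15:36770770-36796929, both on the minus strand. The annotation also lists 3 processed pseudogenes of Ywhaq, none of which is a feature of the files, and how reads shared with them were counted is not given in the sources used here.

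Promoter sequences from RefSeq (GRCm38.p6) were at hand for 4 members, Ywhae, Ywhag, Ywhah and Ywhaq. The 250 bases before the start of Ywhah and Ywhag are shown. Ywhah was picked because it stood apart in microglia among the named classes. Ywhag, on the same chromosome, was picked as the member most like Ywhah across classes and libraries (Pearson r = 0.72). Capitals mark matches, on either strand, to the cAMP response element TGACGTCA, the GC box GGGCGG and the CCAAT box CCAAT.
Ywhah, chr5:33018566-33018815, plus strand: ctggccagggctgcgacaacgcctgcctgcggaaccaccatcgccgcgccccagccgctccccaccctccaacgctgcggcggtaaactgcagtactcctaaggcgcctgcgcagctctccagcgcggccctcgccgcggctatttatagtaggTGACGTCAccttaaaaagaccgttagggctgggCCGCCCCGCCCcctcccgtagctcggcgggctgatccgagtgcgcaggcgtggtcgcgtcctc
Ywhag, chr5:135934642-135934891, minus strand: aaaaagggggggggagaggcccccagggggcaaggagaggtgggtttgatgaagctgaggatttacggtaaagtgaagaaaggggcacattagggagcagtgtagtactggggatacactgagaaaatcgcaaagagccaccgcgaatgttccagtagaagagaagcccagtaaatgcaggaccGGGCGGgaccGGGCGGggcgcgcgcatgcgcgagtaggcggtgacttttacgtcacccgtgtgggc
The Ywhah promoter held TGACGTCA at base -96, a motif found in 1.55% of the 32851 promoter windows of this length, and the Ywhag promoter did not. GC boxes stood in both, as in 32.7% of all windows. The Ywhaq window, which reaches 201 bases into the annotated gene, held 2 CCAAT boxes (in 33.8% of windows) and no GC box. These are matches of letters and not measured binding sites.

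Ywhaq reached its highest level in mature oligodendrocytes (OLs), the cells that wrap axons with myelin. There it measured 370.2 and 324 CPM in the C57J libraries, 248 in the nude and 334 in the BALB/c library (319 ± 51.6, n = 4). In LS neurons the same libraries gave 105, 105, 86.1 and 85.8 CPM. The lowest OL value lay far above the highest LS value, and OLs were the highest of the 14 classes in every library. On the CPM scale OLs stood 3.33-fold above LS neurons (log2 ratio of LS neurons to OLs -1.73 ± 0.20). Next in order came vascular nuclei (226 ± 75.1), the Dlx6os1 and Top2a cluster (190.4 ± 44.0) and newly forming OLs (176 ± 29.7), and the ranges of OLs and vascular nuclei overlapped. Cholinergic neurons had the lowest mean, 75.8 ± 3.5.

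Along the oligodendrocyte lineage the 6 members did not keep 1 course. Oligodendrocyte precursor cells (OPCs) had 98.0 ± 24.0 CPM of Ywhaq, near that of LS neurons. Newly forming OLs, a small class of 230 nuclei that carry Bcas1, Enpp6 and Gpr17, held 185, 204, 134 and 180.2 CPM, above the OPCs of the same library in 4 of 4 libraries. Relative to OPCs of the same library, Ywhaq in OLs was 2.62 to 4.57 times as high, while the mean ratios of the other members lay between 1.15 and 1.44. Among the 3 OL subclusters, the smallest (359 nuclei, led by Gm5087 and Opalin, the latter a myelin protein gene) had the highest Ywhaq, with 459, 426, 346 and 400.3 CPM, against 314 ± 60.2 and 299.6 ± 31.9 in the larger subclusters. The other 5 members had their lowest means of the 3 subclusters in that same one, for example Ywhah with 66.1 ± 38.4 CPM against 130.3 ± 32.6 and 97.5 ± 15.9. The nude library gave 32 nuclei to it.

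**Figure D1:**
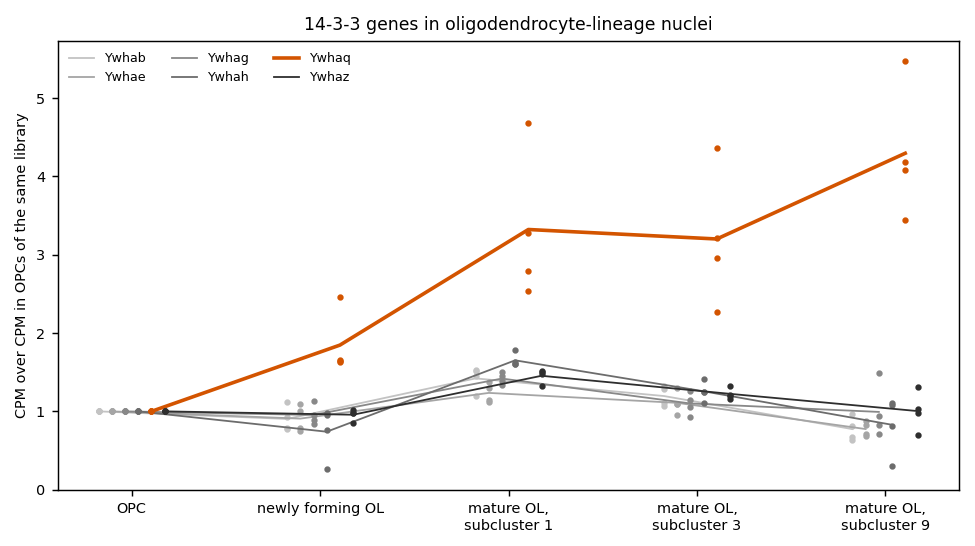
Level of each 14-3-3 gene in newly forming OLs and in the 3 subclusters of mature OLs, as CPM divided by the CPM of the same gene in OPCs of the same library (linear scale). Points are the 4 libraries and lines join their means. Every Ywhaq point past the OPCs lies above 1 (means 1.85, 3.32, 3.20 and 4.30), while the means of the other genes lie between 0.74 and 1.65.

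The make-up of the family shifted with it. Of all UMIs of the 6 genes, Ywhaq took 28.1% ± 5.0 in OLs and 23.4% ± 5.9 in newly forming OLs, against 13.0% ± 2.5 in OPCs, 13.0% ± 1.8 in astrocytes and 14.3% ± 1.8 in LS neurons. Its share in OLs ran from 21.9% in nude to 33.4% in BALB/c, above the highest share in any of these last 3 classes (16.9%). The share is taken within a class and library, so the class total cancels from it.

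Among the named classes, Ywhah, the eta protein gene, stood apart in microglia, the resident phagocytes of the brain. The 4 libraries gave 249, 179, 181 and 236 CPM there (211 ± 36.7), and the lowest of these lay above the highest value of the next class, the Dlx6os1 and Top2a cluster (122 ± 35.5), which also carries division genes. Over all members and the order of all 14 named classes, this was the 1 step between neighbours at which the 4 values did not overlap. The unnamed nuclei were left out of these orders, and their Ywhah level lay above that of microglia in C57J 2 and in nude. With classes called from marker UMIs alone, microglia were highest in 3 of 4 libraries, and in C57J 1 they held 247 CPM of Ywhah against 301 in nuclei called by the neuroblast markers. Ywhaq also measured 301 CPM in those nuclei, and their UMI total is not given here. The other 5 members overlapped at all 13 steps of their orders. LS neurons held the lowest mean of Ywhah, at 63.5, 47.0, 48.5 and 54.4 CPM, which put microglia 3.95-fold above them (log2 ratio -1.98 ± 0.10). Of the family's UMIs in microglia, Ywhah took 16.1% ± 2.8, with 13.5% in the lowest library, against 7.97% ± 0.48 in LS neurons and means of 7.13% to 10.9% in all other named classes.

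The other members had their highest means in vascular nuclei or microglia. Vascular nuclei were few, 208 in all and 27 to 83 per library. Ywhae, the epsilon protein gene lost in the chromosome deletion of Miller-Dieker syndrome, ran from 119.7 ± 22.4 CPM in Lhx6 neurons to 289 ± 17.1 in microglia and 305 ± 58.5 in vascular nuclei, a ratio of means of 2.55. Ywhaz, the zeta protein gene, ran from 125 ± 17.1 in Lhx6 neurons to 279 ± 66.1 in microglia. Ywhab, the beta protein gene, ran from 65.5 ± 29.2 in ependymal nuclei, a class of 41, to 220.1 ± 82.6 in vascular nuclei, a ratio of means of 3.36, with 77.9 ± 11.3 in LS neurons and 181 ± 32.4 in microglia. Ywhag, the gamma protein gene known from infant epilepsy, ran from 98.1 ± 12.8 in Drd2 neurons to 209.6 ± 34.4 in microglia. Summed over the family, vascular nuclei (1328 ± 217) and microglia (1322 ± 166) were highest, LS neurons had 667 ± 52.8 and Lhx6 neurons the least, 585 ± 62.2.

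**Figure D2:**
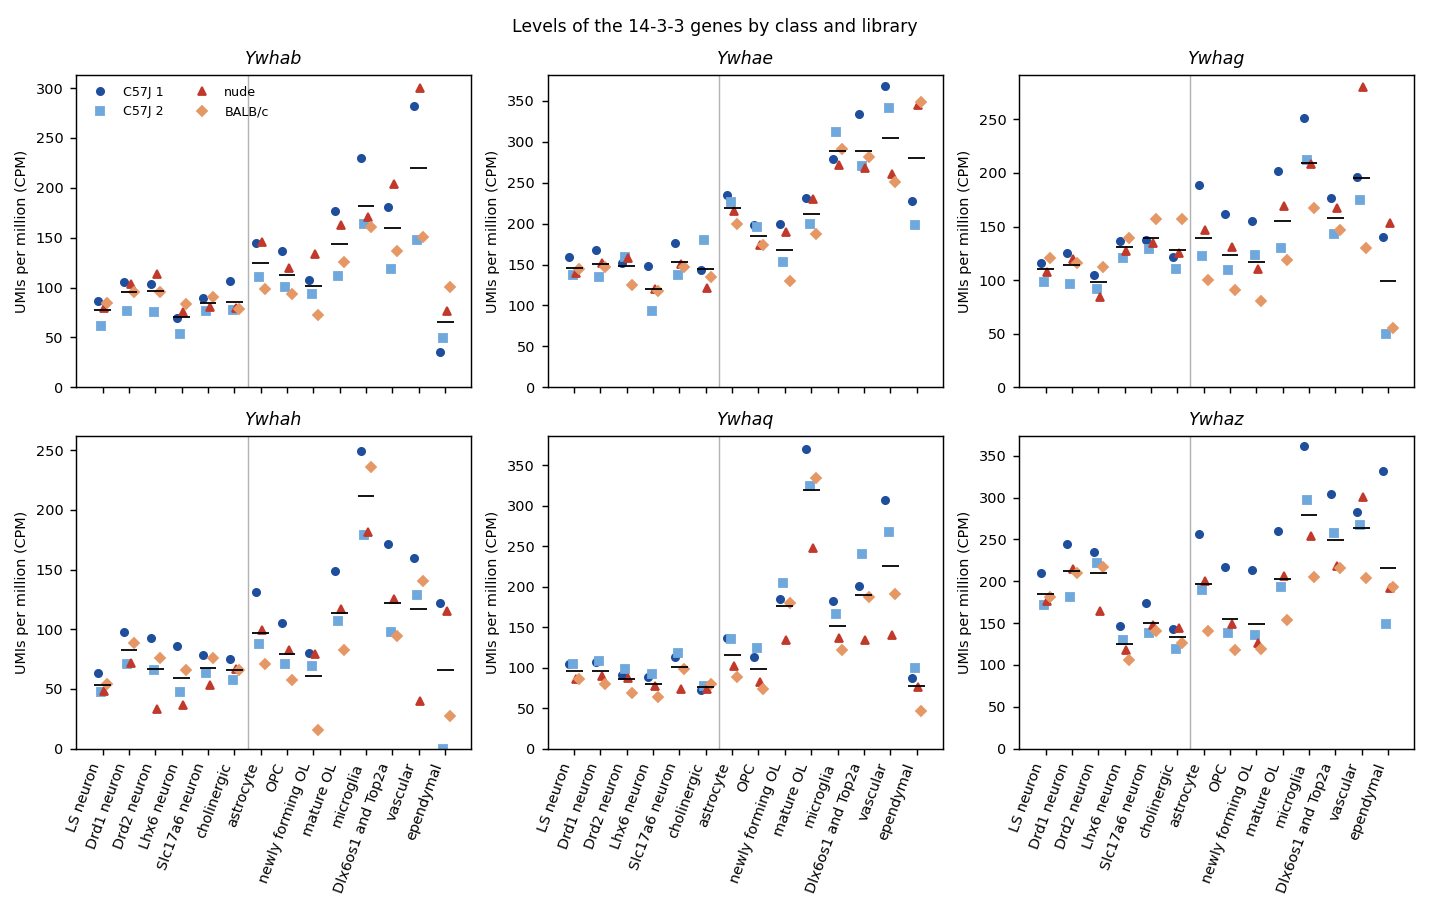
CPM of each of the 6 genes by class, with neuron classes to the left of the grey line. Each point is 1 library and each horizontal bar the mean of 4. Within the panel of its gene, mature OLs have the highest mean of Ywhaq (248 to 370.2) and microglia that of Ywhah (179 to 249).

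Depth and the type of cell moved with these orders. Over the 14 class means, Spearman's rho of a member's CPM with the median UMIs of a nucleus ran from -0.63 (Ywhag) to -0.94 (Ywhae), and with the mitochondrial share from 0.61 (Ywhag) to 0.94 (Ywhae). The classes share libraries and these are descriptions. Median depth was 8472 UMIs in LS neurons, as the mean over libraries, 3404 in OPCs, 2788 in astrocytes, 2437 in OLs and 1786 in microglia. The mitochondrial share was 0.217% in LS neurons and 1.01% in microglia. Counted per nucleus in place of by CPM, all 6 members were higher in LS neurons than in the 4 glial classes (astrocytes, OPCs, OLs and microglia) pooled, in 4 of 4 libraries. The log2 ratio of Ywhaz was -0.07 ± 0.27 by CPM and 1.64 ± 0.23 per nucleus. For Ywhah it was -0.97 ± 0.27 and 0.74 ± 0.23, and for Ywhaq -0.89 ± 0.13 and 0.81 ± 0.19. The direction by CPM was toward glia in 4 of 4 libraries for Ywhab, Ywhae, Ywhah and Ywhaq, and in 3 of 4 for Ywhag and Ywhaz.

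The OL and microglia results depend on that scale. Ywhaq had 0.923, 0.67, 0.455 and 1.38 UMIs per nucleus in OLs of C57J 1, C57J 2, nude and BALB/c, against 0.898, 0.743, 0.605 and 1.16 in LS neurons, so OLs were the higher class in 2 of 4 libraries although a nucleus held fewer UMIs in all. Ywhah had 0.407 ± 0.195 UMIs per nucleus in microglia and 0.489 ± 0.193 in LS neurons, and LS neurons were higher in 4 of 4 libraries (log2 ratio 0.31 ± 0.13).

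**Figure D3:**
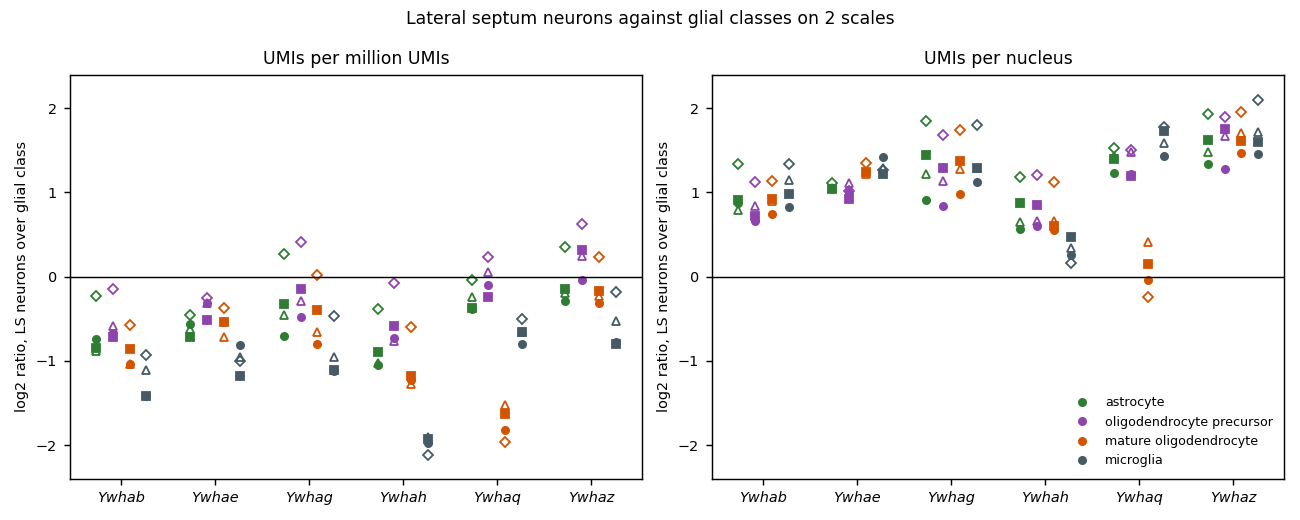
log2 ratio of LS neurons to each of 4 glial classes for the 6 genes, by CPM (left) and by UMIs per nucleus (right). Each point is 1 library, values above 0 are higher in LS neurons, and the same counts underlie both panels. Most points on the left lie below 0, and on the right Ywhaq in OLs is the 1 pair with points on both sides.

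Neuronal RNA was present in the glial classes. Snap25, a synaptic vesicle fusion gene of neurons, had 365 to 658 CPM in microglia, 248 to 541 in OLs and 221 to 426 in astrocytes, against 884 to 1045 in LS neurons. The 4 genes of the neuron list summed to 1706 to 3833 CPM in microglia and 7533 to 8752 in LS neurons. Beside this, OLs had 0.847 ± 0.369 Ywhaq UMIs for each Snap25 UMI, newly forming OLs 0.801 ± 0.250, astrocytes 0.329 ± 0.067, microglia 0.28 ± 0.053 and LS neurons 0.101 ± 0.017. For Ywhah the values were 0.408 ± 0.168 in microglia, 0.282 ± 0.051 in OLs and 0.0563 ± 0.0078 in LS neurons. Vascular nuclei gave 0.313 ± 0.190 and ependymal nuclei 0.347 ± 0.342. The range of microglia overlapped those of vascular nuclei, ependymal nuclei and OLs. Snap25 itself was higher in LS neurons than in the other classes listed, which lowers the ratio of every member in LS neurons. Ywhae, for example, had 0.154 ± 0.013 in LS neurons and 0.639 ± 0.177 in astrocytes. A cluster of 791 unnamed nuclei with a median of 1843 UMIs and neuronal genes in the lead had a family sum of 1469 ± 123 CPM, above the mean of every named class, with 159 ± 57.3 of Ywhaq and 175 ± 40.9 of Ywhah. What depth, mitochondrial share and neuronal RNA contribute to the order of the classes was not tested.

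Among neurons the members differed in where they were high. Ywhaz had 212 ± 25.9 CPM in striatal Drd1 neurons and 209 ± 31.0 in striatal Drd2 neurons, against 184 ± 17.7 in LS neurons, 150.1 ± 16.1 in Slc17a6 neurons and 125 ± 17.1 in Lhx6 neurons. LS neurons lay above Lhx6 neurons in every library, and their ranges did not overlap. For Ywhag, LS neurons lay below Slc17a6 and Lhx6 neurons in 4 of 4 libraries, with 139.6 ± 12.1 in Slc17a6 neurons, 131 ± 8.8 in Lhx6 neurons and 110.5 ± 9.8 in LS neurons. As a share of the family, Ywhaz took 27.6% ± 0.6 in LS neurons and 21.4% ± 2.4 in Lhx6 neurons, with no overlap, and Ywhag took 16.6% ± 1.1 and 22.5% ± 1.6, again with no overlap. Median depth of Lhx6 neurons, 7440 UMIs as the mean over libraries, was near the 8472 of LS neurons. With nuclei thinned to 1000 UMIs, the mean share of Ywhag in Lhx6 neurons moved to 19.6%. That of Ywhaz in LS neurons moved to 26.7%.

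Within LS neurons, 25 subclusters had at least 50 nuclei in every library. Each is called by the 2 genes of a fixed panel that were highest in it relative to the other subclusters, which need not be its leading genes among all genes. Ywhaz was highest in the subcluster called by Nts and Sst, 2 neuropeptide genes of the septum, at 270.1, 233, 232 and 239 CPM (243 ± 17.97), and lowest in the one called by Met and Grid2ip (149.6 ± 14.7). The ratio of these means was 1.63, and the ranges did not overlap. The Nts and Sst subcluster also had the highest Ywhag, at 146, 146, 148 and 147 CPM in the 4 libraries, against 74.5 ± 3.9 in the subcluster called by Col6a3 and Grid2ip, a ratio of 1.97. Ywhah ran 1.88-fold, from 41.4 ± 9.6 with Met and Grid2ip to 77.8 ± 16.3 with Pth2r and Otx2os1. Ywhaq ran 1.55-fold, from 77.3 ± 12.1 in a subcluster called by Foxp2 and Htr7 to 120 ± 13.99 with Pth2r and Otx2os1. Ywhae and Ywhab ran 1.31-fold and 1.28-fold, and the ends of the Ywhab order overlapped. Spearman's rho between the subcluster order of a pair of libraries averaged 0.615 for Ywhaz and 0.165 for Ywhab. Against the median UMIs of a subcluster, rho was 0.17 for Ywhaz, -0.14 for Ywhag and -0.82 for Ywhae, over 25 subclusters that share libraries. The ends of these orders were picked by their values, and no test applies to them.

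**Figure D4:**
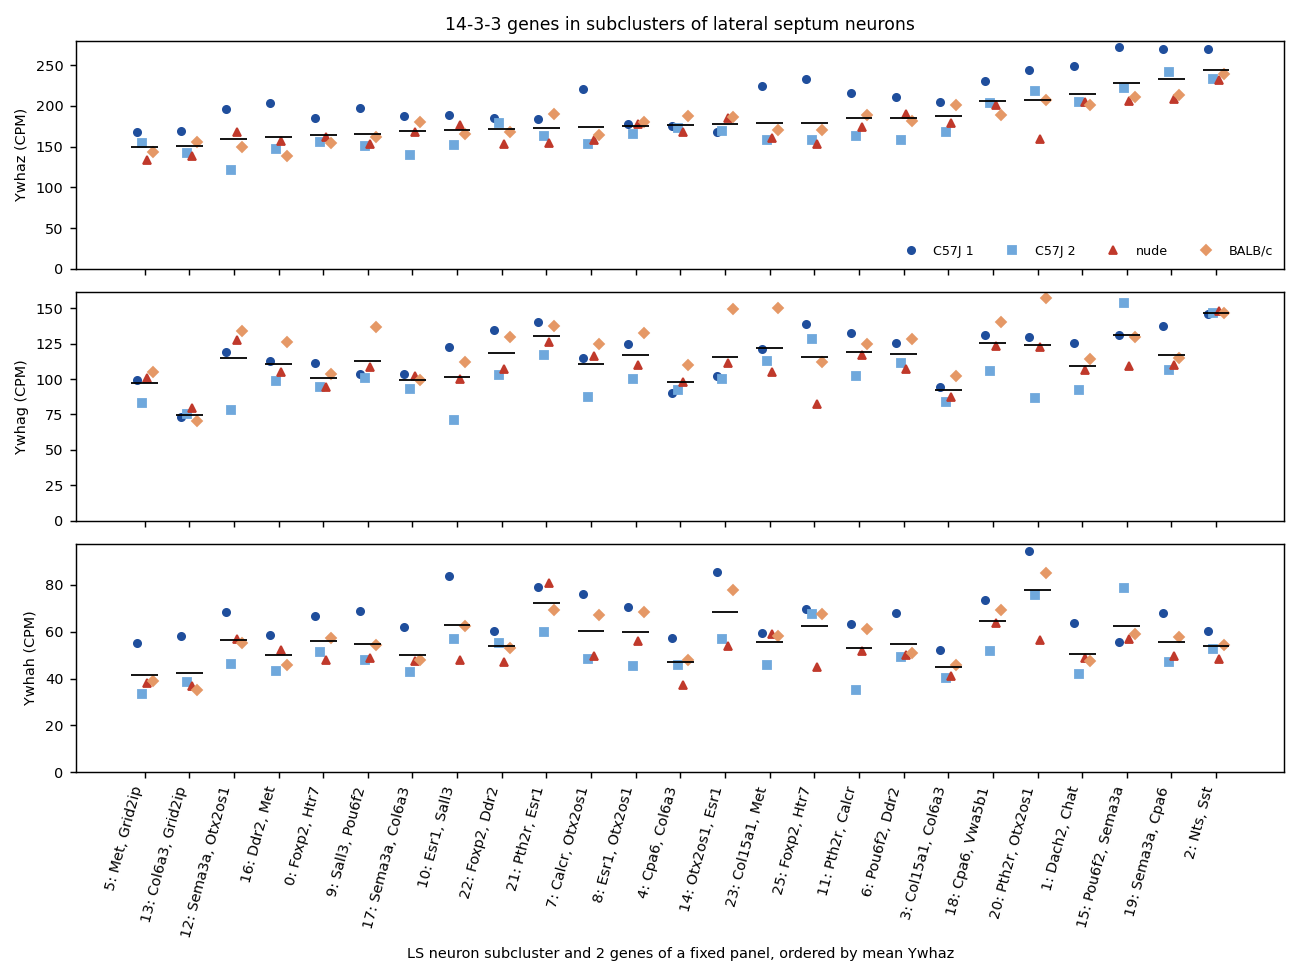
CPM of 3 of the genes in the 25 subclusters of LS neurons, each named by its number and 2 genes of the panel and ordered by mean Ywhaz. Points are the 4 libraries and bars their mean. The Nts and Sst subcluster is at the high end for Ywhaz (243 ± 17.97) and for Ywhag (147 ± 0.9).

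The genes most like each member across 56 points (14 classes in 4 libraries, log2 CPM, 7760 genes at a mean of 20 CPM or more) fell into different kinds. For Ywhaq they included Plcl1 (Pearson r = 0.86) and Mal (0.84). Psma7 (0.92), Cox6a1 (0.90) and Cdk5r1 (0.90), genes of the proteasome, of mitochondrial respiration and of the neuronal kinase CDK5, were most like Ywhah. Cmss1 (0.90), Eif4g2 (0.88) and Cox7c (0.86) headed the list of Ywhae. Ywhab was closest to Gapdh (0.80), Eef1a1 (0.79) and Slc25a4 (0.77), and Ywhaz to Arf3 (0.82), Arf1 (0.79) and Fkbp1a (0.79). Ywhag was closest to Pdxp (0.78), Cox6a1 (0.77) and the synaptic vesicle gene Syp (0.75). Between members, r ran from 0.34 for Ywhah with Ywhaq to 0.72 for Ywhag with Ywhah. The points share libraries and depth, and r describes likeness only.

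To ask whether the 14-3-3 genes differ with background, UMIs were summed per library and class, and nude with BALB/c was compared with both C57J libraries by edgeR's quasi-likelihood test in the 10 classes that had at least 50 nuclei in every library. None of the 60 tests of a member in a class was called at an adjusted p below 0.05 and a log2 fold change above 0.5 in size (4 had an unadjusted p below 0.05). DESeq2 also called 0, with 1 unadjusted p below 0.05. The lowest adjusted p was 0.168 by edgeR. Of all genes tested, the share called was 2.2% in LS neurons, 0.611% in Drd1 neurons, 0.399% in Drd2 neurons, 0.331% in Lhx6 neurons, 0.437% in Slc17a6 neurons, 0.0565% in astrocytes, 0.0714% in OLs, 0.325% in OPCs, 0% in microglia and 0.0565% in the Dlx6os1 and Top2a cluster. A permutation test of 2 libraries against 2 cannot give an exact p below 0.333.

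Ywhaq had the lowest p-values of the members. In LS neurons it measured 105 and 105 CPM in the C57J libraries, against 86.1 for nude and 85.8 for BALB/c (log2 difference -0.26 ± 0.07 SE, edgeR adjusted p = 0.168). In OPCs it measured 113, 124, 82.6 and 73.2 CPM (-0.53 ± 0.17, edgeR adjusted p = 0.442). Astrocytes gave 137, 136, 102 and 88.2 CPM (-0.45 ± 0.15, edgeR adjusted p = 0.589), and Slc17a6 neurons 113, 118, 73.4 and 98.3 (-0.40 ± 0.16, edgeR adjusted p = 0.521). These 4 classes held all 4 unadjusted p-values below 0.05, a level that 8.46% of all gene and class pairs reached.

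Over the 10 classes, the log2 difference of Ywhaq lay between -0.53 and -0.19 and had the same sign in 10 of 10, also with RLE factors and DESeq2. Of the 7334 genes tested in all 10 classes, 6.87% were lower in each of them. In 9 of the 10 classes both the nude and the BALB/c value lay below both C57J values, which 1.27% of these genes matched or passed. OLs were the exception, with 248 CPM in nude but 334 in BALB/c against 370.2 and 324 in C57J (-0.19 ± 0.28, edgeR adjusted p = 0.999). The same 4 libraries give the values of every class, so the classes are no independent repeats. Within batch 2, nude lay below C57J 2 in 10 classes and BALB/c in 9, with median log2 differences of -0.34 and -0.44, and C57J 2 lay below C57J 1 in 4 of 10 with a median of 0.03. Without the nude library, the sign held in 9 of 10 classes and OLs turned to 0.08.

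Ywhae was also below 0 in 10 of 10 classes, but by 0.16 at most and by less than its SE in each, and in 9 of 10 with RLE factors or DESeq2. Over all 60 tests, 46 differences were below 0 and 14 above. The median over all genes of a class lay between -0.019 and 0.005. The share of all gene and class pairs below 0 was not computed, and the 60 tests share the same 4 libraries. In 16 of the 60 tests the nude and BALB/c values both lay below both C57J values, 9 of them Ywhaq and 4 Ywhaz. They both lay above in 1, Ywhab in Lhx6 neurons (69.3, 53.5, 75.05 and 83.9 CPM). Over all gene and class pairs these shares were 22.5% and 15.3%. For Ywhab, Ywhag, Ywhah and Ywhaz, C57J 2 lay below C57J 1 in 10 of 10 classes, with median log2 differences of -0.47, -0.28, -0.49 and -0.31. Their median log2 differences between backgrounds were 0.09, 0.03, -0.30 and -0.30. C57J 1 is also the library of batch 1 and of the higher mitochondrial share, and the part of these was not tested. Ywhab in LS neurons measured 86.3, 61.6, 79.5 and 84.3 CPM. Its log2 difference of 0.17 ± 0.17 became 0.46 without C57J 1 and -0.07 without C57J 2.

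**Figure D5:**
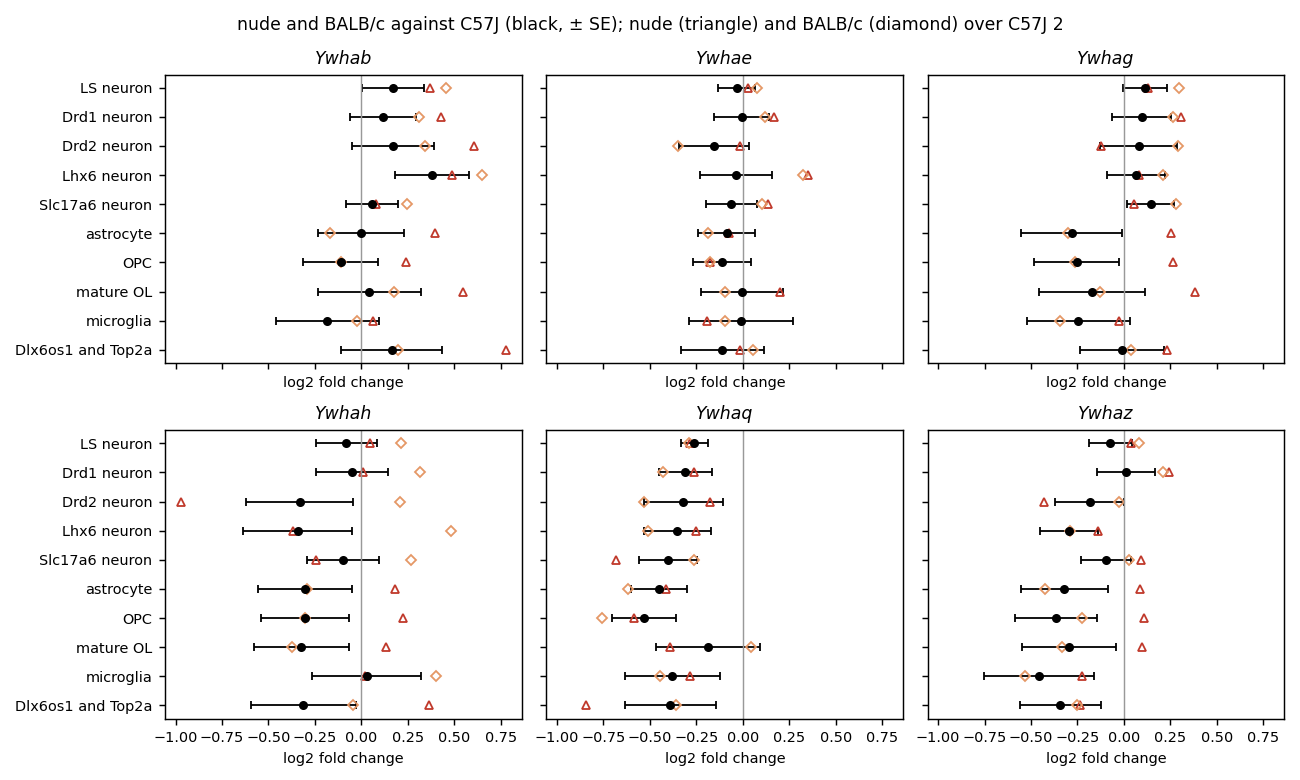
log2 fold change of each gene in nude and BALB/c against C57J in 10 classes (black points with SE from edgeR), with the plain log2 ratio of nude (triangle) and BALB/c (diamond) to C57J 2 of the same batch. Values below 0 are lower than in C57J. For Ywhaq the black points and triangles lie below 0 in 10 of 10 classes and the diamonds in 9. For the other 5 genes the black points lie nearer 0 or on the other side of 0 from a batch 2 ratio in some classes.

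In microglia, 1359 nuclei carried 368 to 713 UMIs of each member, so the precision there was low. Ywhaz measured 361 and 297 CPM in C57J, against 254 for nude and 205 for BALB/c (-0.46 ± 0.29, edgeR adjusted p = 0.947). Ywhaq measured 183, 166, 136 and 122 (-0.38 ± 0.26, edgeR adjusted p = 0.947), and Ywhag 251, 212, 208 and 167 (-0.24 ± 0.28, edgeR adjusted p = 0.948). These 3 members did not overlap between C57J and the other libraries, Ywhag by a narrow margin. Over all gene and class pairs, 22.5% were lower without overlap in the same way. The share within microglia alone was not computed. Ywhab, Ywhae and Ywhah overlapped, with log2 differences of -0.18 ± 0.28, -0.01 ± 0.28 and 0.03 ± 0.29. No gene at all was called in microglia by edgeR, where 451 of 8891 had an unadjusted p below 0.05, and DESeq2 called 15. The neuron list summed to 1706 CPM in microglia of BALB/c and to 3071, 3697 and 3833 in C57J 1, C57J 2 and nude, and its part in these values was not tested.

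Whether the background difference itself differed between LS neurons and a glial class was tested with library as a term. None of the 24 interaction tests was called (0 had an unadjusted p below 0.05, and limma-voom also called 0), where 0.00535% of all genes were called with astrocytes, 0.00547% with OLs, 0.158% with OPCs and 0.195% with microglia. For Ywhaq the glial log2 difference minus that in LS neurons was -0.25 ± 0.18 with OPCs, -0.17 ± 0.16 with astrocytes, -0.12 ± 0.35 with microglia and 0.07 ± 0.29 with OLs. Without the nude library, Ywhag was called with astrocytes (-0.69 ± 0.18, edgeR adjusted p = 0.0107) and OPCs (-0.63 ± 0.17, edgeR adjusted p = 0.00921), a fit in which 1895 of 19222 and 702 of 18931 genes were called.

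Partner genes of 14-3-3 proteins, that is genes of clients and of kinases that make the bound site, were taken from a list. It held 56 genes in 8 roles, of which 54 could be tested in at least 1 class. Of 473 gene and class tests 1 was called, with 19 higher and 15 lower at an unadjusted p below 0.05, a level that 8.46% of all gene and class pairs reached. Within LS neurons 1 of 53 was called, against 2.2% of all genes there. The call was Kcnk9, a potassium leak channel that 14-3-3 proteins help to reach the cell surface, in LS neurons. It measured 34.1 and 32.3 CPM in C57J, against 46.5 for nude and 53.4 for BALB/c (0.62 ± 0.11, edgeR adjusted p = 0.0484), and it rose. DESeq2 gave an adjusted p of 0.000624, while the edgeR call was lost on thinned nuclei (adjusted p = 0.146), under stricter quality limits (0.0525), without nude (0.0655) and without BALB/c (0.292).

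In the other roles no partner gene was called. Of the CREB coactivators, Crtc2 in LS neurons had 19.6 and 13.8 CPM in C57J, against 8.84 for nude and 9.34 for BALB/c (-0.86 ± 0.20, edgeR adjusted p = 0.103), and Crtc1 in microglia 69.9, 35.01, 22.7 and 23.9 (-1.11 ± 0.42, edgeR adjusted p = 0.946). The 9 transcription factors and coactivators had 3 higher and 6 lower values at an unadjusted p below 0.05 in 69 tests. The cell cycle genes had 5 higher and 1 lower in 33 tests, and the insulin and mTOR genes 5 higher and 2 lower in 77. Of all gene and class pairs, 8.46% reached this level. Of the cell cycle genes, Cdkn1b (an inhibitor of cyclin-dependent kinases) in microglia had 13.3, 18.4, 33.0 and 39.4 CPM (1.26 ± 0.40, edgeR adjusted p = 0.878). Cdc25b (a phosphatase that starts mitosis) in LS neurons had 9.99, 9.36, 6.98 and 5.78 (-0.58 ± 0.17, edgeR adjusted p = 0.183). Microglia of a library held only 485052 to 838243 UMIs in all, so the values of Cdkn1b and Crtc1 there rest on few UMIs. Tsc2, which restrains mTOR, gave -0.46 ± 0.15 in LS neurons (edgeR adjusted p = 0.208), and Irs1, an insulin receptor substrate, -0.48 ± 0.51 in microglia. Hdac4, a class IIa histone deacetylase, gave 0.22 ± 0.08 in LS neurons (edgeR adjusted p = 0.259) and 0.29 ± 0.36 in microglia.

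Apoptosis, RAF signalling and the kinases that prepare the bound site were the remaining roles. The stress kinase gene Map3k5 gave 0.53 ± 0.38 in microglia and the death gene Bcl2l11 -0.45 ± 0.31 in LS neurons. Ksr1, a scaffold of the RAF pathway, gave 0.51 ± 0.26 in microglia and Rgs3, a regulator of G protein signalling, -0.19 ± 0.17 in LS neurons. The polarity kinase gene Mark2 gave 0.37 ± 0.26 in microglia and the stress-responsive kinase gene Sgk1 -0.14 ± 0.10 in LS neurons. Each of these 6 had the lowest unadjusted p of its role in its class, none below 0.05. The median log2 difference over all 473 tests was 0.02.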

How the data were processed

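Nuclei of the LS were profiled by droplet snRNA-seq in 4 libraries. Per the labels, the authors processed reads with Cell Ranger 7.0.1 on mm10, and they deposited, without normalization, a filtered matrix of UMI counts for each library. Whether intronic reads were counted is not given in the sources used here. Barcodes with 200 to 6000 genes, 300 to 50000 UMIs and under 2% mitochondrial UMIs were kept, and predicted doublets were removed at 0.8% per 1000 nuclei. Nuclei were clustered by Leiden (igraph 0.11.9, resolution 1) on 40 components of 3000 variable genes, without the members, their partner genes and 111 genes that separated the backgrounds. Non-neuronal nuclei, LS neurons and other neurons were then each clustered again on variable genes of their own. The named classes and subclusters come from this second step.

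Counts were summed per library and class. Background was tested with edgeR 4.0.16 (filterByExpr, TMM, quasi-likelihood, Benjamini-Hochberg over all genes of a class), which was also run on simulated data. DESeq2 1.42.0 was the alternative for the background test and limma 3.58.1 (voom) for the interaction. Neither of these alternatives was run on simulated data. A call needs an adjusted p below 0.05 and, between backgrounds, an absolute log2 fold change above 0.5. Pools of 3 mice make the libraries, so p-values measure no spread between single mice. Within the groups compared, the C57J libraries also differ in batch, and nude and BALB/c differ in genotype. The spread behind the p-values therefore mixes pool, batch and genotype, and is not that of replicate pools alone. The members, gene lists and named-gene rule were chosen with earlier results of these data known. By that rule all members, called partners and, in each role without a call, the partner with the lowest unadjusted p in microglia and in LS neurons are named, with the 3 genes most correlated with each member, of which 1 gene is not reported here. Alternatives included other normalization, no count filter, thinning to 1000 UMIs, other clusterings and leaving out each library.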

Additional observations from a re-analysis of the deposited data

Results flagged for a closer look

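Ywhaq in LS neurons over OPCs was flagged because its log2 ratio differed between the groups in sign. It was -0.10 in C57J 1 and -0.24 in C57J 2, against 0.06 in nude and 0.23 in BALB/c. The means of these groups differ by 0.317. Levels in both classes were near equal, with a mean log2 ratio of -0.01 ± 0.20 over 4 libraries. The share of all genes whose ratio parts the groups in this way was not computed. The corresponding interaction test by edgeR gave a difference of -0.25 ± 0.18 (OPCs minus LS neurons) with an adjusted p of 0.944, so the difference did not pass the threshold. Counted per nucleus, the log2 ratio lay above 0 in 4 of 4 libraries.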

How the results depend on the processing

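No paired analysis was possible, because each library is a separate pool of mice and replicate numbers pair nothing between groups. The C57J group has replicates 1 and 2, while nude and BALB/c have 1 library each, and of the C57J libraries only C57J 2 shares their batch. The count of members called between backgrounds stayed at 0 under all 14 alternatives. The limit on adjusted p alone was tried only on the main fit. Elsewhere a call also needed a log2 fold change above 0.5 in size. Without C57J 1, which leaves 1 C57J library, Ywhab was higher in nude and BALB/c in 10 of 10 classes. In LS neurons it then missed a call by that fold limit, at 0.459. Without C57J 2 it was lower in 9 of 10 classes. The count in the interaction ran from 0 to 2 over the fits that leave out 1 library, with 2 without nude, and stayed at 0 under limma-voom. The log2 ratio of LS neurons to glia became 0.95 (Ywhab), 1.14 (Ywhae), 1.34 (Ywhag), 0.74 (Ywhah), 0.81 (Ywhaq) and 1.64 (Ywhaz) with UMIs per nucleus in place of CPM, a scale added after the data were seen, and that of Ywhaq was -1.14 with classes from marker UMIs alone.

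Over the alternatives, 20 log2 differences between backgrounds changed sign from a value more than 1 SE from 0, none of Ywhaq's. Differences within 1 SE of 0, as for Ywhae in every class, could not count. Of the 20, 9 came from nude over C57J 2 and 7 from leaving out C57J 1. Leaving out 1 library gave -0.0712 to 0.459 for Ywhab in LS neurons, -0.565 to 0.0770 and -0.508 to 0.0914 for Ywhag in astrocytes and OPCs, -0.875 to 0.163, -0.576 to 0.0368, -0.613 to 0.181 and -0.554 to 0.0450 for Ywhah in Lhx6 neurons, astrocytes, the Dlx6os1 and Top2a cluster and OPCs, and -0.653 to 0.0291 for Ywhaz in OPCs, turning for Ywhab without C57J 2 and for the others without C57J 1. Within batch 2, nude over C57J 2 turned to 0.25 and 0.26 for Ywhag in astrocytes and OPCs, to 0.18, 0.13, 0.22 and 0.36 for Ywhah in astrocytes, OLs, OPCs and the Dlx6os1 and Top2a cluster, and to 0.0845, 0.0986 and 0.109 for Ywhaz in astrocytes, OLs and OPCs. BALB/c over C57J 2 turned to 0.21 and 0.48 for Ywhah in Drd2 and Lhx6 neurons. Thinned to 1000 UMIs, Ywhaz in Lhx6 neurons turned to 0.0384. The cause was not tested. DESeq2, RLE factors, no count filter, kept doublets, stricter limits, resolution 2 and a second seed gave none of these changes. Among tested classes the lowest UMI total of any member was in Lhx6 neurons (304 to 665 over the members), which limits precision there, as in microglia (368 to 713). Ywhag had fewer UMIs in Drd2 neurons (452) than in Lhx6 neurons, and nude gave 61 nuclei to Drd2 neurons.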
